A study of Rattus norvegicus with 6 samples.

Results

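The 9 mature miRNAs described here are both arms of the miR-331, miR-423, miR-505 and miR-378a hairpins together with miR-759, 9 of the 749 miRNAs in the deposited count table. They are written here without the species prefix of the table (rno-miR-331-3p, rno-miR-331-5p, rno-miR-423-5p, rno-miR-423-3p, rno-miR-505-5p, rno-miR-505-3p, rno-miR-378a-5p, rno-miR-378a-3p and rno-miR-759). Of the 9, miR-331-3p, miR-423-5p, miR-505-5p, miR-378a-5p and miR-759 were chosen because every library of exosomes from Tongxinluo-pretreated cells lay above every library of exosomes from untreated cells. The remaining 4, miR-331-5p, miR-423-3p, miR-505-3p and miR-378a-3p, are the sister arms, which were taken in because they are cut from the same hairpins. The difference of the 5 chosen arms between the groups was therefore the ground of their choice and is given as a description, without a test, while the difference of a sister arm was not used and is tested.

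Exosomes were prepared from the conditioned medium of bone marrow mesenchymal stem cells (MSCs) of Sprague-Dawley rats. MSCs-exo came from untreated MSCs, and MSCsTXL-exo from MSCs pretreated with Tongxinluo (TXL), a Chinese medicine compound, at 400 μg/mL for 24 h. Each group had 3 libraries, which carry the numbers 10, 12 and 13 in both groups and are called by them here. The sources used here do not say what the numbers mark, nor whether separate cultures lie behind the libraries, so the p-values measure the spread between these libraries only.

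A miRNA is cut from a hairpin precursor whose 2 strands give a 5p and a 3p arm. Usually one arm, the guide, is loaded into an Argonaute protein and the other, the passenger, is degraded. The loaded arm finds its messenger RNAs chiefly through the seed, the bases 2 to 8 from its 5′ end, so the arms of one hairpin have different targets. miR-378a is made from an intron of the gene for the coactivator PGC-1β and in mice restrains mitochondrial energy metabolism, and miR-423-5p is known in human blood as a marker of heart failure. miR-331-3p is known in human tumour cells to repress the receptor ERBB2.

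The mature sequences of 8 of the 9 members were matched by name in RefSeq (assembly GRCr8), and they are shown because the seed in capitals is what tells one arm's targets from the other's.
miR-331-3p: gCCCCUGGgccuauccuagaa
miR-331-5p: gGUCUUGUuuggguuuguu
miR-423-5p: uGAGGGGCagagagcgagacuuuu
miR-505-5p: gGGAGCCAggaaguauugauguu
miR-505-3p: gUCAACACuugcugguuucc
miR-378a-5p: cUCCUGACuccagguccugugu
miR-378a-3p: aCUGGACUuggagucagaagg
miR-759: gCAGAGUGcaaacaauuuugac

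No seed was shared between the 8 sequences. For 7 of them no other mature rat miRNA of RefSeq had the same seed, as was so for 73.7% of all 693 names there. The exception was miR-423-5p, whose seed also occurs in miR-3573-5p, a miRNA with 0 to 3 UMIs in any library. Of the 8 sequences 5 began with G, a first base of 12.7% of the 693, and their GC content ran from 40.9% for miR-759 to 61.9% for miR-331-3p (median of the 693, 47.8%). miR-331-5p was the shortest, with 19 bases, and miR-423-5p the longest, with 24.

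The precursors of 3 hairpins are shown to place the arms, with the mature arms that RefSeq annotates in capitals.
Mir331: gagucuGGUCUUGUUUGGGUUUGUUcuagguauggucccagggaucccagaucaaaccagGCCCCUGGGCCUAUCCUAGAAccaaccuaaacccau
Mir423: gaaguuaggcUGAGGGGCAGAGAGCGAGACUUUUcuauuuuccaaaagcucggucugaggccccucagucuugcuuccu
Mir759: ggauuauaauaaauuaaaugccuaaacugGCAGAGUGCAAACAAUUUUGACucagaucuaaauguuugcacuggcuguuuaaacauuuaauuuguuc

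In RefSeq Mir331 lies within Vezt, which encodes the adherens junction protein vezatin, and Mir423 within Nsrp1, which encodes a nuclear speckle splicing regulator. Mir378, the locus of miR-378a, lies within Ppargc1b, the gene of PGC-1β. Mir759 overlaps no other annotated gene and lies between Cnmd and Pcdh8. The table, which names no genome build, places miR-331-3p at chr7:34881110-34881130 and miR-331-5p at chr7:34881166-34881184, both on the reverse strand. It has miR-423-5p at chr10:63098376-63098399 on the forward strand, miR-378a-5p at chr18:56726190-56726211 on the reverse strand and miR-759 at chr15:62025523-62025544 on the forward strand. Each of the 9 has 1 line in the table.

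Of the members 3 share their place with a miRNA annotated on the opposite strand, and the partner's sequence is shown with the stretch that is the exact reverse complement of the member in capitals.
miR-3589, opposite miR-505-3p: gaGGAAACCAGCAAGUGUUGAC
miR-3557-3p, opposite miR-378a-5p: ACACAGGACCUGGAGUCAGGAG
miR-3557-5p, opposite miR-378a-3p: gCCUUCUGACUCCAAGUCCAGU

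All 20 bases of miR-505-3p, 22 of miR-378a-5p and 21 of miR-378a-3p are complementary to the partner. Of the 749 miRNAs 98 (13.1%) have such an overlap. How strand was used in counting is not given in the sources used here, so the split of counts between these members and their partners is uncertain, and the levels of the 3 are also given with the partner's counts added, which was decided only after the table had been examined. miR-331, miR-423 and miR-759 have no such partner.

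Levels are given as CPM, a miRNA's UMI count relative to its library total after scaling with TMM factors (trimmed mean of M values). A UMI is a molecular tag by which copies made in PCR are counted once, and, as a read spans a whole miRNA, no scaling by length was used. The libraries held 382665 to 1792805 UMIs, and 3 UMIs, the limit that a count of 0 allows for counting error alone, corresponded to 1.94 to 7.48 CPM. The mesenchymal marker miRNAs summed to 311084 to 397733 CPM across MSCs-exo, against 346492 to 396898 CPM across MSCsTXL-exo, and all 8 were detected. Those of blood and immune cells, of which 6 of 7 listed names were matched and none was at 0 in all libraries, summed to 335 to 449.9 CPM and 214.4 to 332 CPM. MSCsTXL-exo thus lay lower, though the groups nearly touched (332 against 335 CPM). Of the 4 tested members 3 had a negative log2 fold change and 1, miR-150-5p, a positive one (0.20). None of the 4 was past the 2-fold and unadjusted p thresholds in edgeR. The part of this in the results below was not tested. The striated muscle list summed to 417 to 837 CPM in MSCs-exo and 144.6 to 519 CPM in MSCsTXL-exo, which overlapped. Of its 2 tested members, miR-206-3p had a log2 fold change of -1.22 and miR-499-5p, in the other direction, 0.31. DESeq2 placed 1 of the 2, miR-206-3p, past the 2-fold and unadjusted p thresholds, as it did 24 of all 392, and edgeR placed 0 of 2. The part of this was likewise not tested. The liver, neuronal and epithelial lists had at most 472, 71.4 and 37.4 CPM in any library. MSCs-exo library 10 and MSCsTXL-exo library 12 stood apart, with 23 and 16 of the 392 tested miRNAs over 2-fold above every other library, against 0 or 1 in each of the others.

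Averaged over the 6 libraries, the arms of miR-423 were by far the most abundant of the 9. miR-423-5p had 762 ± 541 CPM (SD, n = 6 libraries of both groups) and ranked 74 of 749, and miR-423-3p had 534 ± 201 CPM (SD, n = 6) and ranked 92. The other 7 followed with 59.7 ± 28.2 CPM for miR-378a-3p, 53.9 ± 38.1 CPM for miR-331-5p, 50.7 ± 44.3 CPM for miR-331-3p, 41.6 ± 15.01 CPM for miR-505-5p, 27.05 ± 20.7 CPM for miR-759, 14.2 ± 8.80 CPM for miR-378a-5p and 7.71 ± 3.01 CPM for miR-505-3p (SD, n = 6 each). The lowest miR-423 level of any library, 346 CPM, lay above the highest level of any of these 7, 109 CPM. The arms of miR-423 overlapped each other in level, and within the 7, neighbours in the order did not differ beyond their spread between libraries. The order of the group means within 2 hairpins differed between the groups. In both, the arm with the higher mean in MSCsTXL-exo was the one chosen for being high there, so nothing follows from this. The mean of miR-423-3p lay above that of miR-423-5p in MSCs-exo (565 against 441 CPM) and below it in MSCsTXL-exo (503 against 1084 CPM). In MSCs-exo library 13, however, miR-423-5p was the higher arm (559.6 against 369 CPM). The mean of miR-331-5p lay above that of miR-331-3p in MSCs-exo (56.8 against 17.7 CPM) and below it in MSCsTXL-exo (51.1 against 83.7 CPM). The 2 least abundant, miR-505-3p and miR-378a-5p, were counted 40 and 64 times in all 6 libraries together and did not pass the filter on low counts, which the other 7 passed.

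**Figure D1:**
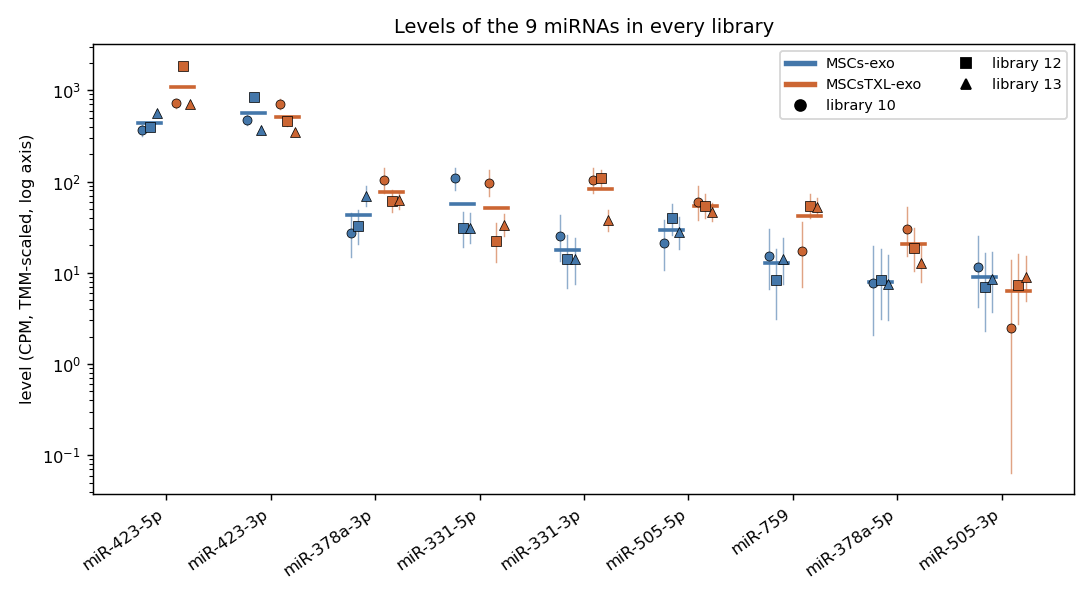
Level of each of the 9 miRNAs (CPM, TMM-scaled, log axis) in every library, in order of mean level, with MSCs-exo in blue, MSCsTXL-exo in orange, the marker shape giving the library number, short horizontal lines the group mean and thin vertical lines the exact 95% Poisson interval of the count. The groups are apart for miR-423-5p, miR-331-3p, miR-505-5p, miR-759 and miR-378a-5p and mixed for miR-423-3p, miR-378a-3p, miR-331-5p and miR-505-3p.

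Of the chosen arms miR-331-3p had the largest fold difference. Its UMIs numbered 13, 10 and 13 across MSCs-exo libraries 10, 12 and 13, or 25.1, 14.1 and 14.0 CPM, and 42, 88 and 58 in the MSCsTXL-exo libraries, or 105, 109 and 37.5 CPM. MSCsTXL-exo library 13 was thus nearer to the untreated libraries than the other 2. The means were 17.7 ± 6.37 CPM (SD, n = 3) and 83.7 ± 40.1 CPM (SD, n = 3), a log2 fold change of 2.24 with a standard error of 0.56. Within a library number MSCsTXL-exo had 4.18-fold (10), 7.75-fold (12) and 2.67-fold (13) more.

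miR-423-5p, the most abundant, had 363, 401 and 559.6 CPM across MSCs-exo libraries 10, 12 and 13 and 718, 1824 and 710.2 CPM across MSCsTXL-exo. The level in MSCsTXL-exo library 12 was more than 2-fold above both of the other pretreated libraries. The means were 441 ± 104 CPM (SD, n = 3) and 1084 ± 641 CPM (SD, n = 3), a log2 fold change of 1.30 (standard error 0.46), which was 0.67 without MSCsTXL-exo library 12. With 188 to 1473 UMIs per library its counting error was small, and the spread between libraries (coefficient of variation 23.7% across MSCs-exo and 59.1% in MSCsTXL-exo) was far above the 5.66% and 3.58% that counting alone gives.

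For miR-505-5p, the levels in MSCsTXL-exo lay closer together than those in MSCs-exo. MSCs-exo libraries 10, 12 and 13 had 21.2, 39.4 and 28.1 CPM and the MSCsTXL-exo libraries 59.8, 54.5 and 46.6 CPM. The means of 29.6 ± 9.16 CPM (SD, n = 3) and 53.6 ± 6.65 CPM (SD, n = 3) differed by 0.84 on the log2 scale (standard error 0.40). Its coefficient of variation was 31.0% in MSCs-exo, where counting alone gives 22.0%, and 12.4% in MSCsTXL-exo, where counting gives 16.9%.

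miR-759, which has no sister arm in the table, had 15.4, 8.43 and 14.0 CPM across MSCs-exo, against 17.5, 54.5 and 52.4 CPM across MSCsTXL-exo. MSCsTXL-exo libraries 12 and 13 stood well above, but library 10 did not, with 7 UMIs (95% Poisson interval 7.02 to 36.0 CPM) against 8 UMIs in MSCs-exo library 10 (6.66 to 30.4 CPM). The means were 12.6 ± 3.70 CPM (SD, n = 3) and 41.5 ± 20.8 CPM (SD, n = 3), with a log2 fold change of 1.74 (standard error 0.54).

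miR-378a-5p had 4, 6 and 7 UMIs across MSCs-exo libraries 10, 12 and 13, or 7.72, 8.43 and 7.56 CPM, and 12, 15 and 20 UMIs in MSCsTXL-exo, or 29.9, 18.6 and 12.9 CPM. The MSCs-exo levels lay closer together (coefficient of variation 5.90%) than counting alone gives for so few UMIs (43.2%). The means were 7.90 ± 0.47 CPM (SD, n = 3) and 20.5 ± 8.64 CPM (SD, n = 3), a ratio of 2.59. With the counts of its opposite-strand partner miR-3557-3p added, the groups overlapped, since MSCs-exo library 10 then had 15.6 CPM and MSCsTXL-exo library 13 had 14.8 CPM.

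The gap between the groups, as the lowest MSCsTXL-exo level divided by the highest MSCs-exo level, was 1.53 for miR-378a-5p, 1.497 for miR-331-3p, 1.27 for miR-423-5p, 1.18 for miR-505-5p and 1.13 for miR-759. For comparison, 16 of the 392 tested miRNAs (4.08%) had every MSCsTXL-exo library above every MSCs-exo library and 13 (3.32%) had the reverse, and over all 749 miRNAs 26 (3.47%) had the former. The tested miRNAs included 4 of the chosen arms and 12 others, of which miR-125a-3p had a gap of 1.34. Just inside, the smallest gap was 1.02 for let-7a-5p, and just outside it was 0.998 for miR-374-5p. With library totals in place of TMM, the gap of miR-505-5p closed to 0.990, so that MSCs-exo library 12 (40.6 CPM) lay above MSCsTXL-exo library 13 (40.2 CPM), while the other 4 remained apart. With the RLE size factors all 5 remained apart. Of the 7 members tested, 3 (miR-331-3p, miR-423-5p and miR-759) had more than a 2-fold change together with p under 0.05, unadjusted, in edgeR's quasi-likelihood test, all higher in MSCsTXL-exo, as were 7 of all 392 (1.79%), and nothing follows from that count, since the same contrast chose them.

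**Figure D2:**
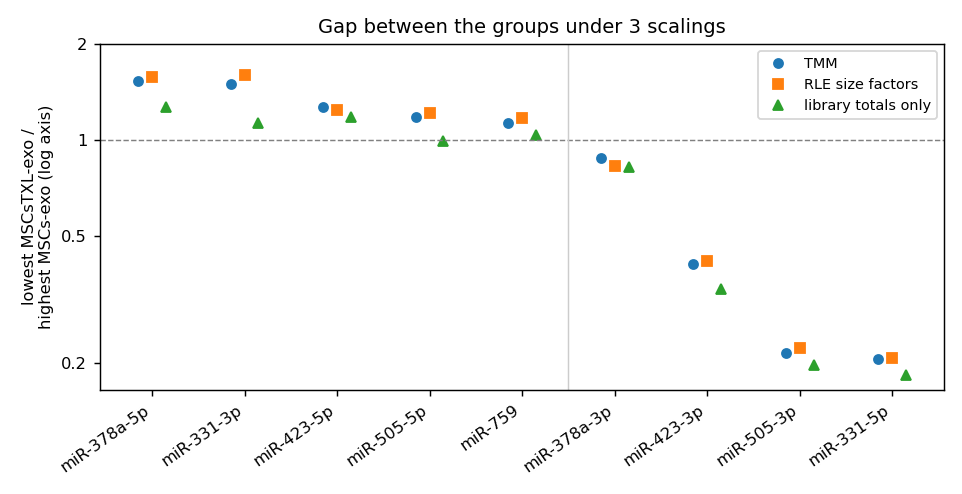
Lowest MSCsTXL-exo level divided by the highest MSCs-exo level (log axis) for the 9 miRNAs under TMM, RLE size factors and library totals, with the chosen arms on the left of the vertical line and the sister arms on the right. Values above the dashed line at 1 mean that the groups do not overlap, and miR-505-5p falls to 0.990 with library totals.

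The sister arms were tested for a difference of their own. In edgeR's quasi-likelihood test, with Benjamini-Hochberg adjustment over all 392 miRNAs, 0 of the 3 that passed the filter had an adjusted p under 0.05, and 0 of the 3 had an unadjusted p under 0.05. DESeq2 likewise had 0 by either measure. Over all 392, 14 miRNAs (3.57%) were past the 2-fold change and unadjusted p thresholds, 29 when the library number entered as a replicate block, and 0 had an adjusted p under 0.05 in edgeR or DESeq2.

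miR-423-3p had 476, 849 and 369 CPM across MSCs-exo libraries 10, 12 and 13 and 708, 456 and 346 CPM across MSCsTXL-exo. The groups were mixed, and the direction differed between library numbers, with MSCsTXL-exo 1.49-fold of MSCs-exo for number 10, 0.537-fold for 12 and 0.938-fold for 13. The means of 565 ± 252 CPM (SD, n = 3) and 503 ± 186 CPM (SD, n = 3) gave a log2 fold change of -0.17 (standard error 0.44), and the sign turned to 0.25 without MSCs-exo library 12. The adjusted p from edgeR was 0.992, and 0.868 to 0.998 over its alternatives.

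miR-331-5p was high in both libraries numbered 10, the smallest library of each group. It had 108, 30.9 and 31.3 CPM across MSCs-exo libraries 10, 12 and 13 and 97.2, 22.3 and 33.7 CPM across MSCsTXL-exo. The lowest library numbered 10 lay above the highest of the other 4, whichever the group, and the part of depth in this was not tested. The log2 fold change was -0.18 (standard error 0.74, adjusted p = 0.992 from edgeR, 0.914 to 0.998 over its alternatives). It ran from -0.98 to 0.63 when a library was left out, the lowest without MSCsTXL-exo library 10 and the highest without MSCs-exo library 10.

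miR-378a-3p, the major arm of its hairpin, had 27.01, 32.3 and 70.2 CPM across MSCs-exo, against 105, 61.9 and 62.1 CPM across MSCsTXL-exo. MSCs-exo library 13 lay above 2 of the 3 pretreated libraries. The means of 43.2 ± 23.6 CPM (SD, n = 3) and 76.3 ± 24.6 CPM (SD, n = 3) gave a log2 fold change of 0.79 (standard error 0.51, adjusted p = 0.992 from edgeR, 0.542 to 0.999 over its alternatives). It was 1.31 without MSCs-exo library 13 and 0.52 without MSCsTXL-exo library 10 or MSCs-exo library 10, and 0.66 with the counts of miR-3557-5p added. Its name relative miR-378b had 7.72, 8.43 and 21.6 CPM across MSCs-exo, against 12.5, 13.6 and 11.01 CPM across MSCsTXL-exo, too few UMIs to pass the filter.

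miR-505-3p had 6, 5 and 8 UMIs across MSCs-exo libraries 10, 12 and 13 and 1, 6 and 14 in MSCsTXL-exo, or 11.6, 7.03 and 8.64 CPM against 2.49, 7.43 and 9.06 CPM. The 95% Poisson interval of the lowest library, 0.0631 to 13.9 CPM, covered the level of every other one. That interval holds the counting error of 1 library only, so it does not decide whether the groups differ. The log2 ratio of the group means was -0.52, and -0.95 without MSCsTXL-exo library 13. With the counts of miR-3589 added, miR-505-3p had 62.5, 46.3 and 41.0 CPM across MSCs-exo, against 54.7, 35.8 and 48.4 CPM across MSCsTXL-exo (log2 fold change -0.11, standard error 0.39). Exact two-sided permutation tests of the mean log2 level gave p = 0.7 for miR-331-5p, p = 0.7 for miR-423-3p, p = 0.5 for miR-505-3p and p = 0.3 for miR-378a-3p (3 libraries against 3, where the smallest possible p is 0.1).

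The share of a hairpin's counts on its 5p arm compares the arms within a library and so does not depend on the scaling between libraries. How well the kit captures each arm was not measured, so the shares describe counts in these libraries. As the chosen arm enters the share, its difference between the groups is a description. Over the 6 libraries, the 5p arm held 55.2 ± 22.9% of the miR-331 counts, 55.5 ± 17.2% of miR-423, 82.3 ± 10.7% of miR-505 and 19.2 ± 5.08% of miR-378a (SD, n = 6 each). miR-505 kept its 5p arm and miR-378a its 3p arm as the major arm in all 6 libraries, as did 147 of the 171 hairpins with at least 10 UMIs over both arms in every library (86%). miR-331 and miR-423 did not.

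The major arm of miR-331 differed between the groups. Across MSCs-exo libraries 10, 12 and 13 the 5p arm held 81.2% (95% exact binomial interval 69.9 to 89.6%, 69 UMIs over both arms), 68.8% (49.99 to 83.9%, 32 UMIs) and 69.0% (52.9 to 82.4%, 42 UMIs). In MSCsTXL-exo it held 48.1% (36.9 to 59.5%, 81 UMIs), 17.0% (10.4 to 25.5%, 106 UMIs) and 47.3% (37.7 to 57.0%, 110 UMIs). The arms were thus near parity in MSCsTXL-exo libraries 10 and 13, and only library 12 had an interval wholly below 50%. The mean share was 73.0% across MSCs-exo and 37.5% in MSCsTXL-exo, and this difference of -35.5 percentage points ranked 1 of the 171 hairpins by size (median 1.91 points). Of these hairpins 16 (9.36%) had shares that did not overlap between the groups, and miR-331 was the only one (0.585%) with the major arm on one side in every MSCs-exo library and on the other in every MSCsTXL-exo library. The other arm of miR-331 was chosen for being higher in MSCsTXL-exo, which lowers the 5p share there. The other hairpins were mostly not chosen in this way, so nothing follows from the rank or from the change of major arm.

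For miR-423 the 5p arm held 43.2%, 32.1% and 60.2% across MSCs-exo libraries 10, 12 and 13 and 50.3%, 80.0% and 67.2% in MSCsTXL-exo, on 435 to 1841 UMIs over both arms (in the shallowest library the exact interval was 38.5 to 48.0%). The groups overlapped, as MSCs-exo library 13 lay above MSCsTXL-exo library 10, while each pretreated library was above the untreated one of its number. For miR-505 the shares were 64.7%, 84.8% and 76.5% across MSCs-exo and 96%, 88% and 83.7% in MSCsTXL-exo. These overlapped narrowly and rested on 17 to 86 UMIs over both arms, and here too each pretreated library was above the untreated one of its number. In both hairpins the 5p arm was chosen for being higher in MSCsTXL-exo, which favours this direction, so nothing follows from it. With the counts of miR-3589 added to miR-505-3p, the miR-505 shares became 25.6 to 45.9% in MSCs-exo and 49.0 to 60.3% in MSCsTXL-exo, so that both the major arm and the overlap depend on where those counts belong. For miR-378a the 5p arm had 22.2%, 20.7% and 9.72% across MSCs-exo and 22.2%, 23.1% and 17.2% in MSCsTXL-exo, so the groups overlapped, and the lowest share was that of MSCs-exo library 13, where miR-378a-3p was high.

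**Figure D3:**
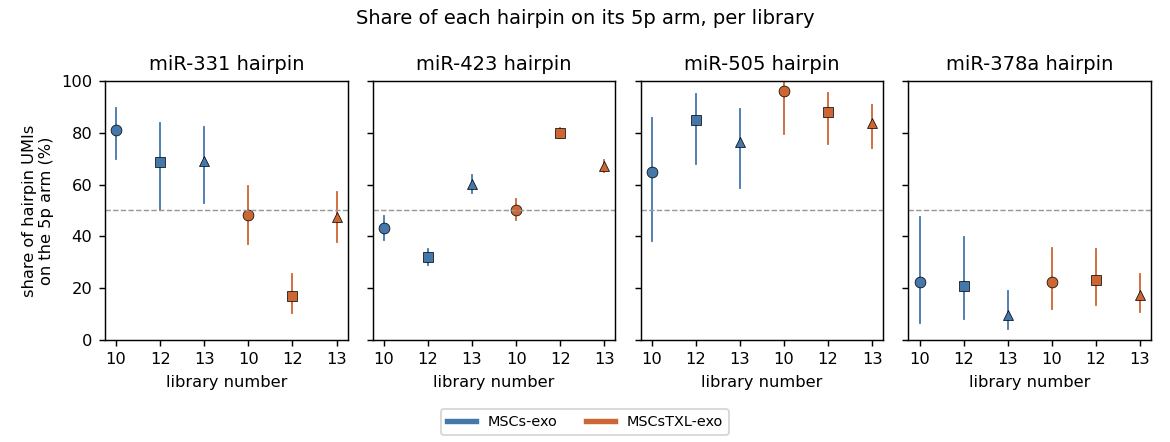
Share of the UMIs of each hairpin on its 5p arm (%) in every library, by library number, with MSCs-exo in blue and MSCsTXL-exo in orange, vertical lines the 95% exact binomial interval (counting error only) and the dashed line 50%. miR-331 lies at 68.8 to 81.2% across MSCs-exo and 17.0 to 48.1% in MSCsTXL-exo, while miR-378a stays at 9.72 to 23.1% throughout.

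In 93 hairpins both arms passed the filter, and 54 of these had log2 fold changes of the same sign, with a median gap of 0.38 between the arms, and the gap was not tested. The gap was 2.42 for miR-331, which ranked 3 of the 93, and 1.47 for miR-423, which ranked 7, and in both the chosen arm entered because it was high in MSCsTXL-exo.

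**Figure D4:**
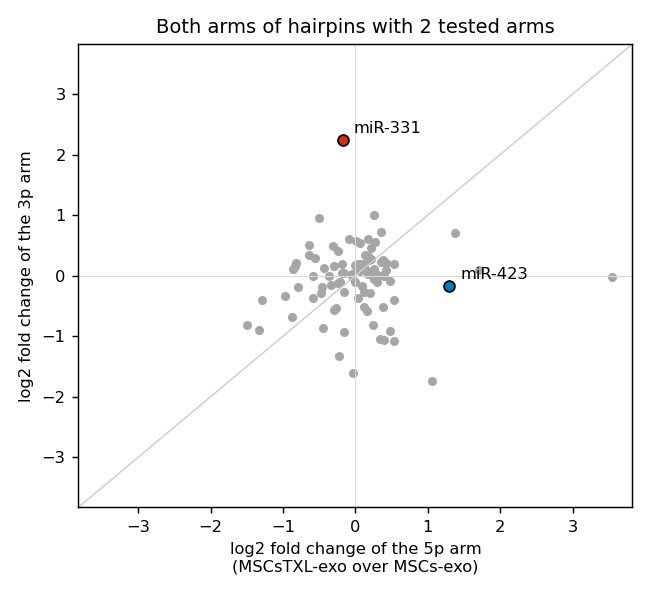
Log2 fold change (MSCsTXL-exo over MSCs-exo) of the 5p arm on the horizontal axis and of the 3p arm on the vertical axis, 1 point for each of 93 hairpins with both arms tested, with the grey diagonal marking equal change. miR-331 (-0.18 for 5p, 2.24 for 3p) and miR-423 (1.30 for 5p, -0.17 for 3p) lie off the diagonal in opposite directions.

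The miRNAs whose pattern over the 6 libraries was most like each member were found by the root mean square difference of centred log2 levels, where 0 is an identical pattern. The nearest miRNAs lie below the median by definition. Of the neighbours of chosen arms, miR-125a-3p, let-7d-3p, miR-758-5p and miR-455-3p also had every MSCsTXL-exo library above every MSCs-exo library, while miR-3577 and miR-3583-3p did not. Nothing follows from their likeness, since the chosen arms were picked for that pattern. miR-423-5p was closest to miR-125a-3p (0.29) and let-7d-3p (0.39), against a median of 0.90 over the tested miRNAs. miR-423-3p was closest to miR-598-3p (0.21) and miR-92b-3p (0.22), with a median of 0.70. miR-331-5p was closest to miR-329-5p (0.28) and miR-770-3p (0.31), which like it were highest in both libraries numbered 10: miR-329-5p had 40.5 and 29.9 CPM there and 9.84 to 16.2 CPM elsewhere. miR-378a-3p was closest to miR-320-3p (0.27) and miR-193a-5p (0.31), and miR-505-5p to miR-455-3p (0.23) and let-7d-3p (0.31). miR-505-3p was closest to miR-98-3p (0.27) and miR-466b-3p (0.32). miR-378a-5p was closest to another member, miR-505-5p (0.36), and then to miR-455-3p (0.39). miR-331-3p had no such near neighbour, with miR-3577 at 0.70 and miR-3583-3p at 0.71, and neither had miR-759, with miR-758-5p at 0.58 and miR-423-5p at 0.59. Their medians were also the highest of the members, at 1.29 for miR-331-3p and 1.05 for miR-759. The measure is not divided by a miRNA's spread, so a wide spread between libraries enlarges every distance. Within a hairpin the arms of miR-378a were closest (0.49), followed by miR-423 (0.996), miR-505 (1.02) and miR-331 (1.37). The miR-505 value includes a library with 1 UMI of miR-505-3p. In each hairpin the chosen arm was picked for its group difference and the sister was not, so nothing follows from this order.

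Beside miR-378a, 15 miRNAs known for the control of lipid and energy metabolism were listed, of which 11 passed the filter. 4 had a positive and 7 a negative log2 fold change (median -0.02, against 0.03 over all 392). In edgeR 0 of the 11 passed the 2-fold and unadjusted p thresholds and 0 had an unadjusted p under 0.05 (3.57% of all 392 had one). DESeq2 placed 1 of the 11 past both, miR-33-3p, as it did 24 of all 392. miR-33-3p, the sister arm of the cholesterol transport regulator miR-33-5p, had 26.5 ± 19.0 CPM (SD, n = 3) for MSCs-exo, against 8.94 ± 6.55 CPM (SD, n = 3) for MSCsTXL-exo (log2 fold change -1.56, standard error 0.75, adjusted p = 0.972 from edgeR). The adipogenic miR-143-3p had 65133 ± 4790 CPM (SD, n = 3) and 56983 ± 13960 CPM (SD, n = 3), miR-34a-5p, a p53 target, was at 0.28 on the log2 scale (standard error 0.23), and the paralogs miR-103-3p and miR-107-3p, known for their part in insulin sensitivity in mice, had -0.02 and -0.15. miR-103-3p and miR-107-3p are near-identical in sequence, so the split of counts between them is uncertain.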

How the data were processed

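Small RNA libraries were made with the QIAseq miRNA Library Kit, and per the labels the authors used cutadapt 2.7 and Bowtie 1.2.2. They deposited UMI counts per mature miRNA and library. The genome build and use of strand are not given in the sources used here. The table's 833 lines hold 749 miRNAs, each counted once. Its 6 other columns of values, CPM, were not used. The column letters M and T were read as MSCs-exo and MSCsTXL-exo, and their numbers are not tied to replicate numbers of the titles.

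edgeR 4.0.16 (R 4.3.3) was run on all miRNAs: TMM factors, filterByExpr by group (minimum count 10, minimum total 15; 392 kept) and the quasi-likelihood test with group as the only term. The study's thresholds were a fold change over 2 and p under 0.05. DESeq2 1.42.0, RLE factors, library totals, no filter, a stricter filter (10 or more counts in each library), each library left out and a replicate block were alternatives. The script was tested on simulated data. Between libraries of 1 group, chi-square over its degrees of freedom was 53.5 to 198, so none was a copy of another.

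After group means were subtracted, libraries of the same number correlated over miRNAs at 0.431 (10), 0.166 (12) and 0.692 (13). The number was therefore treated as a possible pairing, without a comparison with libraries of different numbers. The main fit and the permutation tests did not use it, so their p-values ignore any such pairing. Blocked values are given where they change a call. Dispersion corresponded to a biological coefficient of variation of 0.481 (blocked, 0.312).

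The members and lists were chosen with earlier results of these data known. Named were the members, for each the 2 miRNAs with the smallest root mean square difference of centred log2(CPM + 1), seed and name relatives, those at the edge of the choice and the metabolism list. A library counted as apart in a miRNA when over 2-fold above every other after 5 CPM were added. Intervals (95%) cover counting error only, and were computed with SciPy 1.17.1. The host locus of 1 hairpin is not reported here.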

Additional observations from a re-analysis of the deposited data

How the results depend on the processing

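The count of miRNAs past the 2-fold and unadjusted p thresholds, 14, became 24 with DESeq2, 34 with no filter, 6 with at least 10 counts in every library and 29 with library number entered as replicate block, and it ran from 6 to 38 when a library was left out. Of these, no filter and the stricter filter also change how many miRNAs are tested. The cause of the others was not tested. The block changed no call of a sister arm, with log2 fold changes of -0.16 for miR-331-5p, -0.14 for miR-423-3p and 0.82 for miR-378a-3p. Over the libraries left out miR-331-5p ran from -0.98 to 0.63, reversing to 0.63 without MSCs-exo library 10, 0.18 without MSCsTXL-exo library 12 and 0.04 without MSCsTXL-exo library 13, and miR-423-3p to 0.25 without MSCs-exo library 12. Over the libraries left out, miR-423-3p ran from -0.48 to 0.25 and miR-378a-3p from 0.52 to 1.31. miR-505-3p, which did not pass the filter, ran from -0.95 to -0.13 as the log2 ratio of the group means, not as an edgeR estimate. The mean 5p shares moved by less than their SD between libraries under pooled counts. They did so too with each library left out. Leaving out a single library cannot move such a mean by as much as that SD, whatever the values. Nothing therefore follows from the left-out libraries about how stable the shares are. The chosen arms kept their direction in each alternative that gave a value. Over the libraries left out the log2 fold change was 1.97 to 2.55 for miR-331-3p and 0.67 to 1.53 for miR-423-5p. It was 0.63 to 1.10 for miR-505-5p and 1.48 to 2.09 for miR-759. For miR-378a-5p the range of 1.22 to 1.52 covers only some of these fits. Without MSCsTXL-exo library 10 or 12, where it was highest (29.9 and 18.6 CPM), it did not pass the filter and has no value. These arms were chosen with every MSCsTXL-exo library above every MSCs-exo library. Leaving a library out could therefore hardly turn their direction, and nothing follows from its being kept. Depth limits miR-505-3p, miR-378a-5p and miR-759 most.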
